A study of Homo sapiens with 16 samples.

Results

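SPARC, THBS1 and TGFBI, which encode secreted proteins that sit in the extracellular matrix and adjust how cells attach to it, were described together with the tissue inhibitors of metalloproteinases TIMP1, TIMP2 and TIMP3 and the matrix proteoglycan genes DCN, LUM, BGN and VCAN. The 10 genes were chosen by name, and each matched exactly 1 of the 27043 named rows of the count table. The cells were SK-N-AS, an established human neuroblastoma line, untreated and grown in RPMI1640 with fetal calf serum (10%) and the antibiotics penicillin and streptomycin (1%), and were detached with versene. Single cells were sorted into plates and read by MARS-seq, a method that counts transcripts at their polyadenylated end, so counts were not divided by transcript length and levels of different genes are compared as tags. The labels describe 16 samples of this 1 group, but the 603 columns of the table show only cell barcodes, so the cells were read as 1 pooled sample, with no replicates and no test.

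Matricellular proteins such as SPARC and the thrombospondins bind collagens, growth factors and cell surface receptors without forming the fibres of the matrix themselves. The TIMPs block matrix metalloproteinases, each with its own preferences, and TIMP2 also takes part in the activation of MMP2 at the cell surface. Decorin, lumican and biglycan (DCN, LUM, BGN) are small leucine-rich proteoglycans that bind collagen and growth factors, and versican (VCAN) is a large proteoglycan that binds hyaluronan. Several of these genes are counted among the markers of the mesenchymal state of neuroblastoma lines.

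The cells held 1537576 counts, with totals from 1000 to 42404 and a median of 2106 per cell. Of 364 distinct barcodes, 239 occur in both of the 2 runs of columns, which are called barcode set 1 (316 cells) and barcode set 2 (287 cells); they follow from the point where barcodes begin to repeat, do not stand for any labelled group, and serve as a check. Where single cells were compared, all were thinned at random to 1100 counts, which kept 560 cells and left out 43. Among regulators of sympathetic neuroblastoma, TBX2 stood at 407 CPM (counts scaled to the same total for every set of cells) and HAND2 at 273 CPM. Of 11 markers of fibroblasts and mural cells 8 stood at 5 CPM or above, with RGS5 at 2135 CPM and THY1 at 619 CPM, while COL1A2 and TCF21 were at 0, a count that still allows 1.95 CPM. All 5 erythroid, 5 of 6 Schwann cell and 4 of 6 endothelial markers were at 0, and of 6 immune markers 3 were at 0, with CD68 at 54.6 CPM and PTPRC at 18.9 CPM. No cell type in the table should lack the 10 genes, so the share of cells that free RNA alone would give could not be measured.

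The proximal promoters of the most abundant members, SPARC and TIMP1, are shown because SPARC stood lower in cells with many mitotic transcripts, and they are set beside those of the mitotic genes CDC20 and PLK1. The sequences are the bases before the gene start from RefSeq (GRCh38.p14). Promoter sequences were at hand for 7 of the 10 members, and not for TIMP2, DCN and LUM. Capitals mark matches, on either strand, to TTTGAA (the CHR element, common in genes expressed in mitosis), CCAAT and GGGCGG (the GC box). The windows are chr5:151686916-151687165 on the minus strand for SPARC, chrX:47582186-47582435 on the plus strand for TIMP1, chr1:43358831-43358980 on the plus strand for CDC20 and chr16:23678739-23678888 on the plus strand for PLK1.
SPARC: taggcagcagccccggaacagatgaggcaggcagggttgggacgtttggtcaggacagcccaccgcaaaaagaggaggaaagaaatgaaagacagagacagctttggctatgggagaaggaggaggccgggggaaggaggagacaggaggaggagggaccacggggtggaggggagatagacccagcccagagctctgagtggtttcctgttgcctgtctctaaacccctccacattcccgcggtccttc
TIMP1: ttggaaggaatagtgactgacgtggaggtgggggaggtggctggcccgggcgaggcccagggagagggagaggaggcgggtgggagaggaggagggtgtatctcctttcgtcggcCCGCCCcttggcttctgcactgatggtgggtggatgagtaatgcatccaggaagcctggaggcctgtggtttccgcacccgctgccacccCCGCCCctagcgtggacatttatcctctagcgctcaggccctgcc
CDC20: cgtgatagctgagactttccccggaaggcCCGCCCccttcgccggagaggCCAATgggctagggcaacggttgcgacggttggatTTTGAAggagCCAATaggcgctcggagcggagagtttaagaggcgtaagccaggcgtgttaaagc
PLK1: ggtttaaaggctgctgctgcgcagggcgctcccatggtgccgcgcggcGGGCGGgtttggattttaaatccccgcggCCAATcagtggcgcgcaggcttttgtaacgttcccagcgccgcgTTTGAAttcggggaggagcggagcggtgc
Over the 250 bases before the start, TTTGAA was found in 23 of 44 promoters of the G2/M list (52.3%), in 1 of 7 members (BGN) and in 13.6% of 27305 promoters. CCAAT was found in 30 of the 44, in 2 members (THBS1 and TIMP3) and in 33.0% of all. GGGCGG was found in 31 of the 44 (70.5%), in 6 of 7 members, with SPARC the exception, and in 42.3% of all. TGANTCA (AP-1) and TATAAA were in none of the 7, in 1 and 2 of the 44, and in 6.60% and 11.1% of all. These matches describe letters in a window and show no binding.

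SPARC had the highest level of the group and TIMP1 the next, and between them they held 46.3% and 27.6% of the 5470 counts of the 10 genes. SPARC, a collagen-binding matricellular protein, stood at 1649 CPM (exact Poisson interval at 95%, 1585 to 1714), rank 80 of all rows. The cells held between 0 and 56 SPARC counts, with 3 in the median cell, and 86.4% of cells had one. TIMP1, which inhibits most secreted metalloproteinases, stood at 983 CPM (934 to 1034), reached 46 counts in a cell, with 2 in the median cell, and was found in 79.8% of cells. The highest count of each lay in the deepest cell, where SPARC stood at 1321 CPM and TIMP1 at 1085 CPM of that cell's own counts. TIMP2 stood at 290.1 CPM (264 to 318) and TIMP3, the inhibitor that stays bound to the matrix, at 44.9 CPM (34.9 to 56.8).

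Of the proteoglycan genes, BGN was highest at 210.1 CPM (188 to 234), ahead of LUM at 135 CPM (117 to 154) and DCN at 114 CPM (98.2 to 133). The intervals of LUM and DCN overlap, and that of BGN lies above both. VCAN stood at 39.0 CPM (29.8 to 50.2). THBS1, which binds several receptors and can activate latent TGF-beta, stood at 57.2 CPM (45.9 to 70.5), and TGFBI, a TGF-beta-induced protein that binds collagen and integrins, at 35.1 CPM (26.4 to 45.8). The intervals of THBS1, TIMP3 and VCAN overlap, as do those of TIMP3, VCAN and TGFBI, so their order is not resolved. RefSeq places TIMP1 inside SYN1 (3 counts), TIMP3 inside SYN3 (0 counts) and an overlap between BGN and HAUS7 (90 counts). It also lists overlaps of THBS1 with FSIP1 (0 counts) and of TIMP2 with CEP295NL, which matched no row. No source used here says whether counting used strand, so BGN and HAUS7 cannot be told apart where they overlap. The same holds for TIMP2 and CEP295NL.

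**Figure D1:**
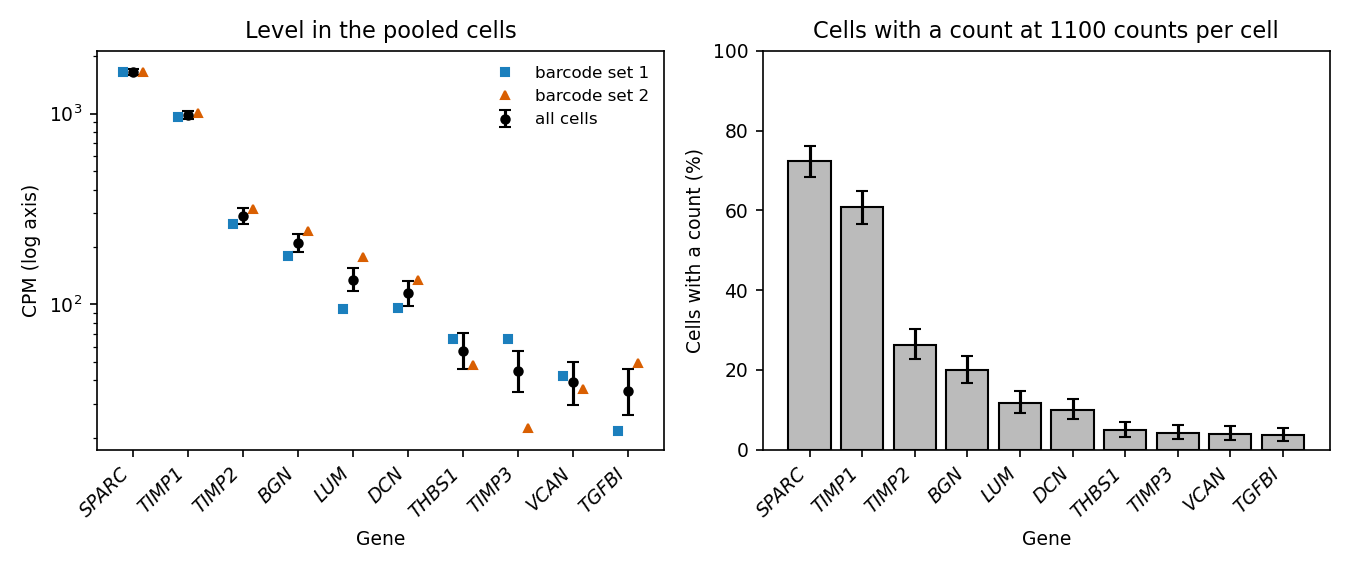
Left, CPM of each gene on a log axis in all 603 cells (black, with exact Poisson 95% intervals) and in barcode sets 1 and 2 (blue squares, orange triangles). Right, percent of the 560 thinned cells with a count, with exact binomial 95% intervals. SPARC at 1649 CPM and TIMP1 at 983 CPM lead, and TIMP3, LUM and TGFBI lie apart between the sets.

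At the equal depth of 1100 counts per cell, SPARC was found in 72.3% of cells (68.4 to 76.0, exact binomial) and TIMP1 in 60.7% (56.5 to 64.8). The shares were 26.2% for TIMP2, 19.8% for BGN, 11.8% for LUM and 10.0% for DCN. THBS1, TIMP3, VCAN and TGFBI were found in 4.82%, 4.11%, 3.93% and 3.57%, which at this depth is a matter of 20 to 27 cells each. A typical cell showed few members at a time: 205 cells had 2 of the 10, 136 had 3, 131 had 1, 25 had none and 1 had 6, the most found.

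The 2 barcode sets gave like levels for SPARC (1655 and 1643 CPM) and TIMP1 (961 and 1006 CPM) and unlike ones for several lower genes. TIMP3 stood at 66.1 CPM in set 1 and 22.6 CPM in set 2, a log2 ratio of set 2 over set 1 of -1.55 (-2.43 to -0.73). LUM went the other way, at 94.1 and 177 CPM (log2 ratio 0.91, 0.49 to 1.34), and so did TGFBI at 21.6 and 49.2 CPM (1.19, 0.32 to 2.11). BGN (179 and 242 CPM) and DCN (95.4 and 134 CPM) were also higher in set 2. The intervals cover counting error only, and what else differs between the sets was not tested.

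SPARC varied between cells more than most genes of its level. The Fano factor, the variance over the mean of thinned counts, was 2.25 for SPARC against a running median of 1.19 for genes of like mean, a ratio higher than in 98.6% of the 2067 genes with a thinned mean of at least 0.1. Its thinned count ran from 0 in 155 cells to 17, with a mean of 1.83 ± 2.03 (SD over 560 cells). DCN followed, with a Fano factor of 1.46 against 1.06 (above 97.1% of genes), then LUM with 1.33 against 1.07 (95.1%) and TIMP1 with 1.29 against 1.13 (89.5%). TIMP2 was not more variable than genes of its level, at 1.06 against 1.09. The 10 cells with most DCN held 27.8% of its counts. This share was 19.8% for LUM and 21.7% for BGN, the next members above DCN in level. It was 26.1% for THBS1, the next member below, which had only 88 counts.

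The first comparison asks how the members go with mitosis. Cells were ranked by their thinned count over 54 G2/M genes, and the 186 cells with the most (11 or more, mean 16.8) were set against the 186 with the fewest (5 or fewer, mean 2.87). The list summed to 8727 CPM, and its most abundant genes were HN1 (1485 CPM), HMGB2 (1454 CPM) and TUBB4B (1052 CPM). These were found in 89.1%, 77.4% and 74.1% of cells, so the count does not rest on genes confined to few cells. SPARC was lower where counts of the G2/M list were many, at 1298 CPM (1201 to 1401) against 2229 CPM (2096 to 2370). Without HMGB2 and TUBB4B in the list its log2 ratio was -0.62. With the whole G2/M list the log2 ratio was -0.78 (exact conditional binomial interval, -0.92 to -0.64), and a SPARC count at equal depth was found in 65.1% against 83.9% of the cells. Of 4599 genes with at least 50 counts, 12.5% had a log2 ratio at or below -0.5 and 14.5% one at or above 0.5, with a median of 0.0042. Among the 10 members, 2 lay at or below -0.5 (SPARC and DCN) and 0 at or above 0.5, and the members' median was -0.19.

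The relation held in each barcode set, with a SPARC log2 ratio of -0.58 (-0.77 to -0.39) in set 1 and -1.01 (-1.23 to -0.79) in set 2. The cells compared had median totals of 2477 and 2079 counts. In steps of the G2/M count, SPARC stood at 2552 CPM in the 71 cells with 0 to 2, 1948 CPM in the 127 with 3 to 5, 1443 CPM in the 116 with 6 to 8, 1487 CPM in the 77 with 9 to 11 and 1313 CPM in the 169 with 12 or more. Most of the difference thus lay between the lowest 3 steps, and the intervals of the upper 3 overlapped. Within the sets the steps were less even, and in set 2 SPARC stood at 1800 CPM in the step of 9 to 11. Read the other way, cells with 0 thinned SPARC counts had a mean of 10.8 ± 7.0 G2/M counts (SD over 155 cells), and cells with 4 or more had 6.78 ± 4.97 (SD over 81 cells). The ranges within 1 SD of these means overlap, and across the 560 cells Spearman's rho of SPARC with the G2/M count was -0.20.

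**Figure D2:**
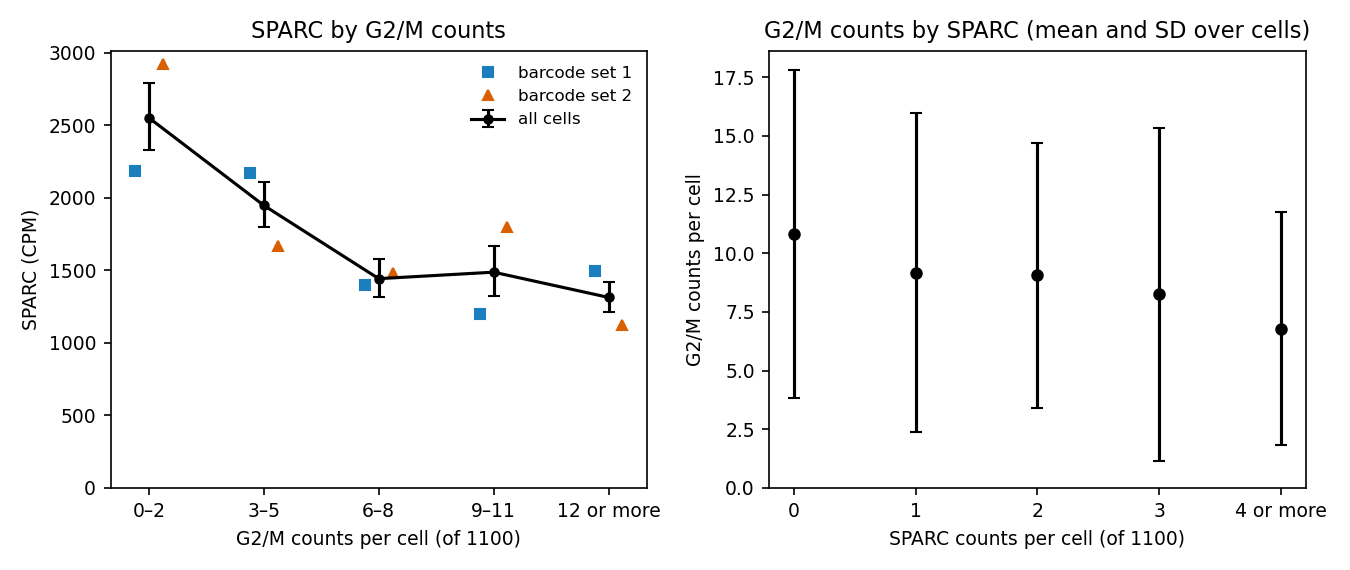
Left, SPARC CPM in cells grouped by their G2/M count of 1100 (black, exact Poisson 95% intervals), and the same within barcode sets 1 and 2. Right, mean G2/M count with its SD over cells, for cells with 0, 1, 2, 3 and 4 or more SPARC counts. SPARC goes from 2552 CPM to 1313 CPM over the steps on the left.

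The same direction was seen with most single mitotic genes. For each gene found in at least 50 thinned cells and missing from at least 50, the mean thinned SPARC count was compared between cells with and without it. Of 19 such G2/M genes 17 gave a log2 ratio below 0 and 11 one of -0.3 or lower. Of all 2071 genes 1111 lay below 0 and 9.27% at -0.3 or lower. SPARC averaged 1.16 counts in cells with the kinesin gene KIF2C and 1.91 in cells without it. For the spindle gene TACC3 the means were 1.30 and 1.94. CDCA3 (2.03 against 1.81) and CBX5 (1.86 against 1.83) went the other way. In a second list of mitotic genes that shares none with the first, 9 of 9 lay below 0 and 5 at -0.3 or lower, among them the mitotic kinase gene PLK1 (1.26 in the 90 cells with it against 1.94). Mitotic genes are found in the same cells, so these comparisons are not independent of each other.

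With genes of G1/S and DNA replication the ratios were smaller. Of 13 G1/S genes 9 lay below 0, against 1111 of all 2071 genes, and 0 reached -0.3. Their median log2 ratio was -0.075, against -0.32 for the G2/M genes and -0.018 for all genes. Between the 186 cells with most and the 186 with fewest G1/S counts SPARC stood at 1629 and 1830 CPM, a log2 ratio of -0.17 (-0.31 to -0.027). These groups had means of 6.83 and 0.866 G1/S counts, fewer than the 16.8 and 2.87 of the G2/M groups. The sizes of the G1/S and G2/M ratios are thus not like for like. With cells thinned to 2000 counts the SPARC ratio was -0.52 (-0.69 to -0.36) for G1/S and -0.78 for G2/M. With cells divided at the medians of both scores, SPARC was highest at 2142 CPM (2008 to 2282) in the 178 cells with few counts of either kind. It stood at 1606 CPM with many G1/S and few G2/M counts, at 1615 CPM with many of both, and was lowest at 1188 CPM (1086 to 1297) in the 143 cells with few G1/S and many G2/M counts. TIMP1 stood between 923 and 1035 CPM and TIMP2 between 273 and 305 CPM in the same 4 groups, with overlapping intervals. The difference between the G2/M and the G1/S ratios was not itself tested.

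The other members showed smaller or less certain ratios with the G2/M count. DCN stood at 86.2 against 149 CPM, a log2 ratio of -0.79 (-1.37 to -0.22), but at -0.10 in set 1 and -1.39 in set 2, and the shares of cells with a count at equal depth were alike (8.60% and 9.14%). TIMP1 stood at -0.20 (-0.39 to -0.014). The intervals of TIMP2 (-0.17), LUM (-0.21), BGN (-0.14), VCAN (-0.14), TIMP3 (0.071), TGFBI (0.44) and THBS1 (-0.47) held 0. With the G1/S count, 11.9% of 4611 genes lay at or below -0.5 and 12.2% at or above 0.5. VCAN stood lower at 21.3 against 57.9 CPM, a log2 ratio of -1.44 (-2.65 to -0.36) resting on 10 and 28 counts, with both sets below 0. LUM stood higher at 179 against 112 CPM (0.68, 0.17 to 1.20), at 1.26 in set 1 and 0.16 in set 2, but at 0.24 (-0.24 to 0.73) with another random thinning and 0.28 with cells split at the median. THBS1 (-0.63) and TGFBI (0.72) also passed 0.5 in size, with intervals that held 0.

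**Figure D3:**
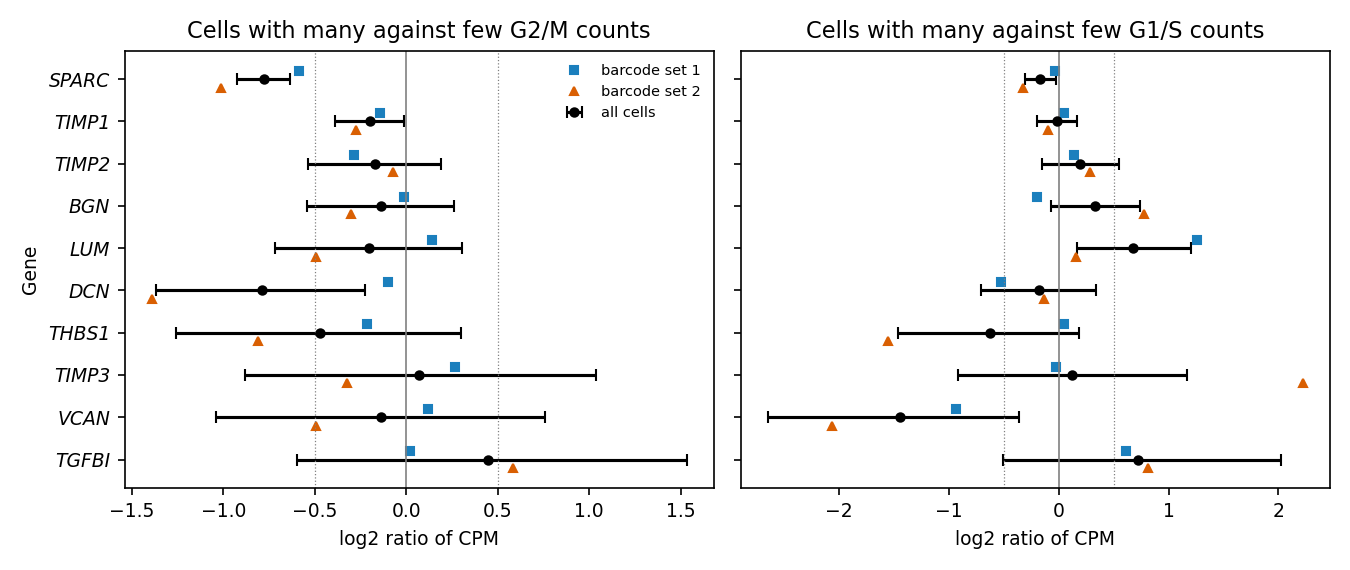
Log2 ratio of CPM of each gene between cells with many and few G2/M counts (left) and G1/S counts (right), with exact conditional binomial 95% intervals (black) and the values within barcode sets 1 and 2. Dotted lines mark 0.5 in either direction; on the left SPARC lies beyond it in both sets, at -0.58 and -1.01.

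The second comparison asks whether the members are found in the same cells. Over their 45 pairs Spearman's rho at equal depth ran from -0.088 to 0.16 with a median of 0.0063, against a median of -0.0010 over all pairs of the 2067 genes. The rho of 3 pairs reached 0.1. They were DCN with LUM (0.16), TGFBI with VCAN (0.11, resting on 3 cells with both) and SPARC with TIMP3 (0.10). Among all pairs of the 2067 genes 1.36% did so. Those genes had a thinned mean of at least 0.1, which THBS1, TIMP3, VCAN and TGFBI did not reach. Of the 3 pairs only DCN with LUM is thus of the kind behind the 1.36%. The 45 pairs share cells, depth and 1 pool, and counts this sparse keep rho near 0, so the low values show no lack of relation. SPARC and TIMP1, the only members found in most cells, had a rho of 0.021, where 2.32% of genes reached 0.1 with SPARC and 2.03% with TIMP1. TIMP1 was found in 61.7% (56.8 to 66.5) of the 405 cells with SPARC and in 58.1% (49.9 to 65.9) of the 155 without. TIMP1 and TIMP2 had a rho of 0.029, and TIMP2 was found in 26.8% of cells with TIMP1 and 25.5% of cells without.

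**Figure D4:**
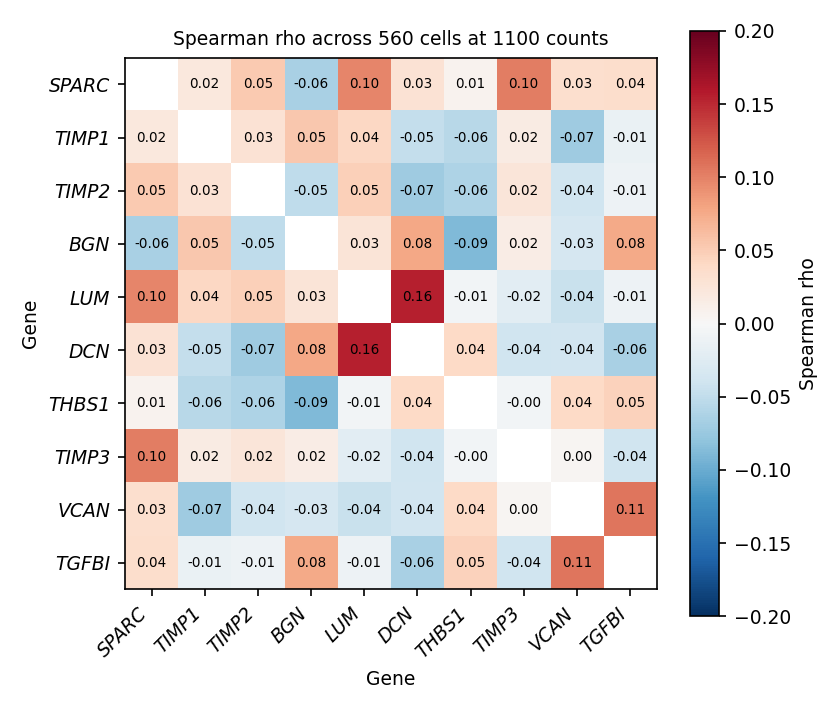
Spearman's rho between each pair of the 10 genes across 560 cells thinned to 1100 counts, with genes ordered by CPM on both axes and the colour scale from -0.2 to 0.2. DCN with LUM, at 0.16, is the highest of the 45 pairs.

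DCN and LUM, which RefSeq lists as neighbours on chromosome 12, had the highest rho of the 45 pairs at this thinning. LUM was found in 26.8% (15.8 to 40.3) of the 56 cells with DCN and in 10.1% (7.63 to 13.1) of the 504 without, and rho was 0.11 in set 1 and 0.19 in set 2. In shares of cells, 10.7% of 2113 genes had a log2 ratio at or above 0.5 between cells with and without DCN, and LUM stood at 1.40 with 15 cells holding both. With another random thinning the shares were 19.6% and 12.8% and rho was 0.060, so the size depends on which counts the thinning keeps, and SPARC with TIMP3 (0.078) was then higher. Without the cells that had DDC, INS-IGF2 or CHGA, rho was 0.087. BGN, the other small proteoglycan, was found in 28.6% (17.3 to 42.2) of cells with DCN and 18.8% (15.5 to 22.5) of cells without, and these intervals overlap. The shares of cells were read the same way for the other members found in at least 50 thinned cells, with a log2 ratio of 0.5 in either direction as the mark. Between cells with and without SPARC, 6.44% of genes were higher and 5.77% lower, and of the other 9 members TIMP3 and VCAN were higher and THBS1 lower. With TIMP1 (6.48% and 4.5% of genes) TIMP3 was higher and THBS1 lower, and with TIMP2 (4.87% and 7.48%) none was higher and THBS1, DCN and VCAN were lower. With DCN, LUM, BGN and THBS1 were higher, and TIMP2, TIMP3 and VCAN were lower with TGFBI in 0 of the 56 cells, where 19.4% of genes were lower. With LUM (9.28% and 14.2%) DCN was higher and VCAN lower, and with BGN (6.44% and 10.4%) TGFBI and DCN were higher and THBS1 and VCAN lower. Each of these rests on 20 or fewer cells with both genes, and THBS1, TIMP3, VCAN and TGFBI were themselves found in fewer than the 50 cells asked of the genes behind these percentages. THBS1 and BGN had the lowest rho, -0.088, with 1 cell holding both. THBS1 was found in 0.901% (0.0228 to 4.92) of the 111 cells with BGN and 5.79% (3.82 to 8.37) of the 449 without.

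The genes with the highest rho to each member were listed over the 560 cells, among genes with a thinned mean of at least 0.1. For SPARC they were NDUFS5 (0.18), RCN1, HSP90B1, TMSB4X and SPCS3, and for TIMP1 the first was AXL (0.18), for TIMP2 S100A10 (0.16), for LUM PSAP (0.16) and for BGN MYEOV2 (0.16). With another random thinning 0 of the 5 were named again for SPARC, TIMP1 and TIMP2 and 1 of 5 for LUM and BGN, so these names are not stable. For DCN 4 of 5 were named again: DDC, the aromatic amino acid decarboxylase of catecholamine synthesis (0.30, and 0.32 with the other thinning), INS-IGF2, whose row also carries the name INS (0.25), the granin gene CHGA (0.21) and FAM167A (0.20).

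DCN was concentrated in cells with transcripts of this neuroendocrine kind, a relation looked into after its values were seen. It stood at 452 CPM (356 to 566) in the 65 cells with a DDC count at equal depth and at 73.2 CPM (59.4 to 89.3) in the 495 without, a log2 ratio of 2.63 (2.17 to 3.07). It was found in 33.8% (22.6 to 46.6) of the former and 6.87% (4.8 to 9.47) of the latter. The ratio was 2.37 in set 1 and 2.73 in set 2, and the groups had median totals of 2183 and 2248. With INS-IGF2 the ratio was 2.26 (1.81 to 2.71; 1.21 and 2.94 in the sets) and with CHGA, found in 18 cells, 2.46 (1.83 to 3.04), where 23.2% of genes lay at or above 0.5 and 32.5% at or below -0.5. In cells with INS-IGF2 these shares were 14% and 17.6%. Of the 10 cells with most DCN, 9 had a DDC count and 8 an INS-IGF2 count, all in full counts rather than at equal depth. These cells had totals from 1445 to 6348. The share of all cells with such a full count was not computed, so the 9 and 8 have no share to be set against. Without those 10 cells the ratio with DDC was 1.71 (1.08 to 2.31).

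The cells with DDC differed in other members too. Between them and the rest, 16.4% of 4635 genes lay at or above a log2 ratio of 0.5 and 22.8% at or below -0.5. BGN stood at 369 against 194 CPM (0.93, 0.50 to 1.33) and LUM at 226 against 122 CPM (0.89, 0.34 to 1.40). Both ratios were above 0 in each set. The intervals of BGN in set 1 (0.64, -0.16 to 1.36) and of LUM in set 2 (0.64, -0.037 to 1.28) held 0. TIMP2 stood lower, at 172 against 309 CPM (-0.84, -1.44 to -0.30), and TIMP1 at 696 against 1028 CPM (-0.56, -0.85 to -0.29), at -0.19 in set 1 and -0.87 in set 2. TIMP3 had 0 counts there against 68 elsewhere. Set at the limit of 3 counts over the group, it would be 2.88-fold lower. The exact interval of its log2 ratio ended at -1.19, a weaker bound. SPARC stood at 1606 against 1657 CPM (-0.046, -0.23 to 0.14), though it stood at -0.61 in set 1 and 0.28 in set 2. In INS-IGF2 cells TIMP1 stood at -0.51 (-0.24 in set 1 and -0.77 in set 2) and TIMP2 at -0.65 (-0.13 and -1.15), so both ratios rest mostly on set 2. Over both sets BGN (-0.22) and LUM (0.23) had intervals that held 0.

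**Figure D5:**
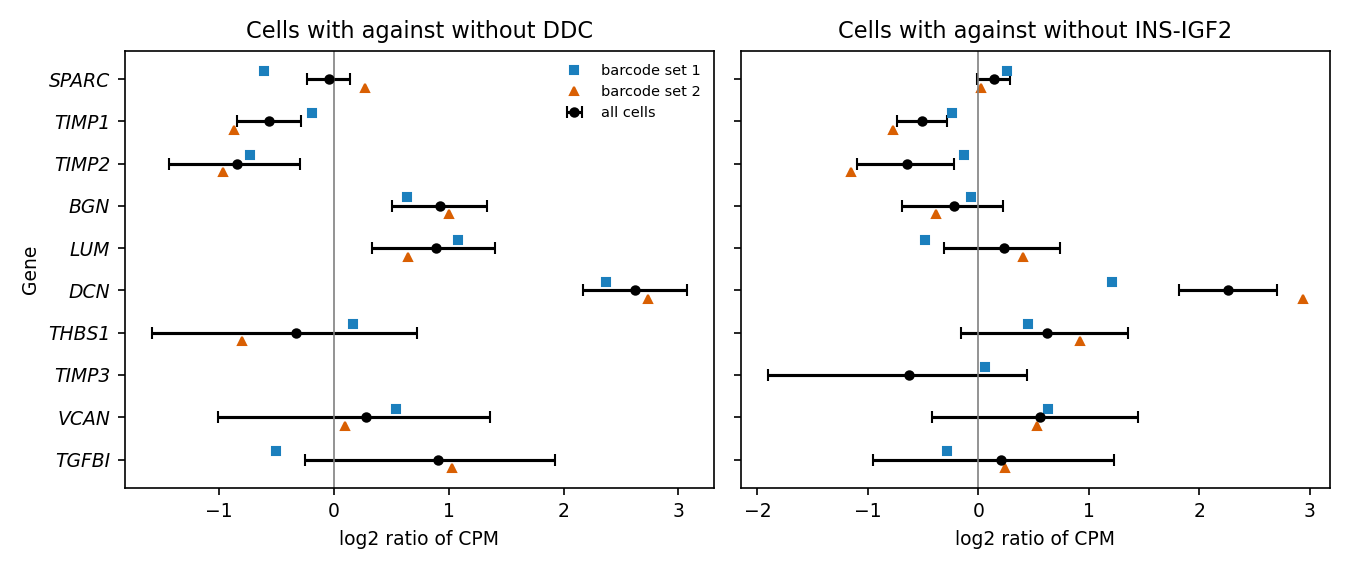
Log2 ratio of CPM of each gene between cells with and without a count of DDC (left) and of INS-IGF2 (right) at equal depth, with exact conditional binomial 95% intervals (black) and values within barcode sets 1 and 2. DCN lies at 2.63 and 2.26; TIMP3 has no point on the left because it had 0 counts in cells with DDC.

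The partners of these proteins were read from lists of pathway genes. Of 23 matrix metalloproteinase genes 16 had 0 counts, and MMP2, the gelatinase whose activation involves TIMP2, took nearly all the rest at 847 CPM (802 to 895), and 72.5% of cells had it. MMP17 (16.3 CPM), MMP14, the membrane enzyme that activates MMP2 (11.1 CPM), and MMP11 (9.76 CPM) followed far below. Of 30 ADAM and ADAMTS genes 11 stood at 5 CPM or above, led by ADAM19 at 131 CPM, and RECK, a membrane-anchored inhibitor, had 8 counts. Of 23 relatives of the matricellular members 7 reached 5 CPM, with THBS4 at 92.4 CPM, THBS2 at 57.2 CPM and THBS3 at 50.7 CPM, while of 17 other proteoglycan genes 14 were at 0 and none reached 5 CPM. Among receptors, CD63, which binds TIMP1, stood at 1601 CPM, the integrin genes ITGA3 and ITGB5 at 432 and 345 CPM, and the thrombospondin receptors CD47 and CD36 at 42.3 and 0.650 CPM.

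With the G2/M count, for which 12.5% of all genes lay at or below -0.5 and 14.5% at or above 0.5, the lists of partners held more lower than higher ratios. MMP2 stood at -0.10 (-0.30 to 0.093) and CD63 at -0.21 (-0.35 to -0.066). Of 6 matricellular relatives with at least 50 counts 3 lay at or below -0.5 (THBS2, THBS3 and CYR61) with intervals that held 0, of 8 structural matrix genes 2 did (FN1 at -0.96, -1.80 to -0.15, and LAMC1 at -0.63, -1.09 to -0.18), and of 12 receptors 3 did, with LRP1, an uptake receptor for TIMPs and thrombospondins, at -1.88 (-3.14 to -0.77). SDC1 was the receptor at or above 0.5, at 2.24 (0.83 to 3.98). Of 4 TGF-beta pathway genes 2 lay at or below -0.5, TGFB1 at -0.85 (-1.63 to -0.10) and LTBP4 at -0.88 (-2.04 to 0.23), and of 4 ADAM and ADAMTS genes 1 lay lower (ADAMTS7) and 1 higher (ADAMTS4), with intervals that held 0. COL1A1 stood at 0.13 (-0.19 to 0.46).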

How the data were processed

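RNA of single SK-N-AS cells was read by MARS-seq. The authors deposited unscaled whole counts, 1 row a gene and 1 column a cell. The submitters' processing notes name Bowtie2 2.1.0 and the build hg19. Not given in the sources used here were the counting tool, the annotation, the cell filter, and whether a count is a molecule or a read. The 603 columns match the number of cells in the series' design text, and a row named unknown (2 counts) was left out. No doublet caller was run, since cells were sorted singly. With 1 pooled sample no test was made, and the planned count model was not run. CPM used summed counts; intervals (95%) and the limit of 3 counts for a 0 cover counting error only. Thinning drew counts without replacement, ties in a score were broken in a seeded random order, and ratios were taken on full counts with Python 3.11.15, numpy 2.4.6 and scipy 1.17.1. The ratio script was tested on simulated Poisson counts that held no spread between cells beyond counting error. That test thus cannot show how the intervals behave for genes with wider spread, such as SPARC and DCN. The running median of the Fano factor spans 101 genes. Genes named are the members, the leading genes of each list, and the 5 genes of highest rho to members with a thinned mean of at least 0.1; others were chosen after values were seen. The members and lists were chosen with earlier results of these data known. Promoter sequences and gene neighbours are from RefSeq.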

Additional observations from a re-analysis of the deposited data

How the results depend on the processing

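The SPARC log2 ratio between cells with many and few G2/M counts stayed below 0 under all 11 alternatives, from -0.96 to -0.49. It was -0.61 and -0.96 with groups made within barcode sets 1 and 2, -0.62 without HMGB2 and TUBB4B, -0.53 with the second mitosis list and -0.49 with cells split at the median. The share of all genes past 0.5 in size was not computed under the alternatives. The counts of members that follow, for G2/M and for G1/S, thus cannot be set against it. Members at or below -0.5 numbered 1 in set 1, with the second mitosis list and with the median split, and 4 in set 2. Members at or above 0.5 numbered 1 in set 2, with the second mitosis list and in cells without DDC, INS-IGF2 or CHGA. With the G1/S count SPARC reached -0.52 at 2000 counts per cell. There, members higher numbered 1 with another thinning and at 2000 counts, and 0 at 1000 counts, with cells of at least 1500 counts and with the median split, and members lower numbered 1 at 1000 counts. LUM with the G1/S count stayed above 0 but was 0.24 with another thinning, 0.30 at 1000 counts, 0.28 with the median split and 0.21 in set 2. DCN, at -0.18 with the G1/S count, was -1.02 (-1.58 to -0.47) with another thinning and 0.30 at 2000 counts. BGN, at 0.33 there, was -0.31 in set 1 and 0.96 in set 2. In that comparison THBS1 reversed to 0.14 at 2000 counts and 0.39 in set 1, and TGFBI to -0.42 in set 2, -0.39 at 1000 counts and -0.51 with the median split. TGFBI with DDC reversed to -0.51 in set 1, and the rho of TGFBI and VCAN to -0.033 with another thinning. The DCN ratio with DDC fell to 1.71 without the 10 cells with most DCN and lay at 2.37 or above otherwise. The cause of these changes was not tested. Alternatives that involve DDC were chosen after seeing the data. No paired analysis was possible because the columns carry no sample. Genes under about 100 CPM were found in few cells, which limits every ratio and rho given for them.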
